A study of Homo sapiens with 18 samples.

Results

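The sites described here are those at which TLE3 was mapped by chromatin immunoprecipitation and sequencing (ChIP-seq) in SKBR3 and MDA-MB-453 cells, 2 established human breast cancer lines. An SKBR3 member is a peak of the TLE3 replicate 1 list (21149 peaks). In MDA-MB-453 the members are regions where peaks of TLE3 replicates 1 and 2 overlap, merged into 21768 sites. Together they make 42917 regions, set against 1134194 peaks in the 12 lists of the series. A site was called shared where it overlapped a member of the other line by at least 1 bp, and specific where it overlapped no TLE3 peak in any list of the other line. SKBR3 TLE3 replicate 2, a list of 94363 peaks, counted against MDA-MB-453 sites in that rule but gave no SKBR3 members, because it differed from replicate 1 as described below. Since SKBR3 members rest on 1 list, the comparison of the lines has no replicate check and no test was run.

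SKBR3 is an ERBB2-amplified, estrogen receptor negative line. MDA-MB-453 also lacks the estrogen receptor. The labels name no treatment for either line and call both breast epithelial. Peak lists hold no expression, so this identity could not be checked against marker levels. The TLE3 antibody was from Proteintech and the FOXA1 antibody from Diagenode. Per the labels, cells for TLE3 received an additional crosslinker before formaldehyde, and cells for FOXA1 did not. FOXA1 was mapped in 2 replicates in each line. T47D, an estrogen receptor positive line mapped in the same way, serves as a further point of comparison. The labels call the replicates biological without saying how they were grown.

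TLE3 is a corepressor of the Groucho family. It does not bind DNA itself and is brought to chromatin by transcription factors such as TCF/LEF, RUNX, HES and forkhead proteins, where it recruits histone deacetylases. FOXA1 is a forkhead pioneer factor that opens chromatin at distal enhancers of luminal breast cells and carries a short segment known to contact Groucho proteins.

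The promoters shown next are those whose window, from 250 bases before to 50 bases after the gene start, lay under the highest ranked sites of each class. They show the letters behind the motif and GC content given after them. Sequences are RefSeq, GRCh38.p14, 5′ to 3′ on the strand of the gene. Capitals mark matches to a forkhead motif (TNTTTAC) or an AP-2 motif (GCCNNNGGC) on either strand, and a window with no capitals holds neither.
SECTM1, under an SKBR3-specific peak, chr17:82333717-82334016, - strand: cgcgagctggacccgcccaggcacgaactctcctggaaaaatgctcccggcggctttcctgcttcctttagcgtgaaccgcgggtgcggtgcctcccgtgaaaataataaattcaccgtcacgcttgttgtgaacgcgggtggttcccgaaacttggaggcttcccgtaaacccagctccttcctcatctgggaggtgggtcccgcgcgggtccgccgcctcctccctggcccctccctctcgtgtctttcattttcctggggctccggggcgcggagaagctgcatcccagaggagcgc
DTNB, under an SKBR3-specific peak, chr2:25673528-25673827, - strand: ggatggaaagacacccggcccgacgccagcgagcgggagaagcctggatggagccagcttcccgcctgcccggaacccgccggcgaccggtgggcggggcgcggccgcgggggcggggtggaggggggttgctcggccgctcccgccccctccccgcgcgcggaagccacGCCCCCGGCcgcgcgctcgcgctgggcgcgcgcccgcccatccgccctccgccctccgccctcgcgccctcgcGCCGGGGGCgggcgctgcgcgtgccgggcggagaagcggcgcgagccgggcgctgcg
DMBT1, under an MDA-MB-453-specific site, chr10:122560504-122560803, + strand: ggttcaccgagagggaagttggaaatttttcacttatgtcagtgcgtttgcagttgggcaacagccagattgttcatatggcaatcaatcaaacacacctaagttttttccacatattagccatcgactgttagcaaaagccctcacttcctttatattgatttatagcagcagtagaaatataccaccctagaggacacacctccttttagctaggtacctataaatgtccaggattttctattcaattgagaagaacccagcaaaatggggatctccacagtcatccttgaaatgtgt
UGT2B10, under an MDA-MB-453-specific site, chr4:68815744-68816043, + strand: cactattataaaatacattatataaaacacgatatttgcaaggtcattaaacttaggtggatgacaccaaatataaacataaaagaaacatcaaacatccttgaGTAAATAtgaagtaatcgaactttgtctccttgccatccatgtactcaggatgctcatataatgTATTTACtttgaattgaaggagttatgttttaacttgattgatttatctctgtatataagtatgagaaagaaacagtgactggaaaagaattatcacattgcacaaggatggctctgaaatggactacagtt
PERCC1, under a shared site, chr16:1430828-1431127, + strand: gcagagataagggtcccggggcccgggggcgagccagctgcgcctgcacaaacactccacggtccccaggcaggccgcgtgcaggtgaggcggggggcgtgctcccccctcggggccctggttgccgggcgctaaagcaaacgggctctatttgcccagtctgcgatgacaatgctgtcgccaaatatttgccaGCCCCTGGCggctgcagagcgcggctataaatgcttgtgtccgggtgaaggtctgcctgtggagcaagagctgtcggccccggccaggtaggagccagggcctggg
PRRT1B, under a shared site, chr9:131545273-131545572, + strand: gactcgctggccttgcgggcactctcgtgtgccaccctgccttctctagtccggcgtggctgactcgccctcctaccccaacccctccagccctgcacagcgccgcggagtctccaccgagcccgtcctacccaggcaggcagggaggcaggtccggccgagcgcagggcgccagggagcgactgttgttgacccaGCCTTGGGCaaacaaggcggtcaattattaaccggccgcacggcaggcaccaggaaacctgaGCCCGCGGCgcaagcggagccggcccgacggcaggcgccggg

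SECTM1 encodes a secreted and transmembrane protein and its promoter lay under the highest ranked SKBR3-specific peak, rank 152 of that list. DTNB, dystrobrevin beta, lay under the peak of rank 450, with a FOXA1 site in neither line and 2 AP-2 matches. DMBT1, a mucosal scavenger receptor protein, lay under an MDA-MB-453 site ranked 1791 and 1827 in replicates 1 and 2. UGT2B10, a glucuronosyltransferase, lay under a site ranked 2676 and 2270, with FOXA1 in MDA-MB-453 and not in SKBR3 and 2 forkhead matches. PERCC1 and PRRT1B lay under shared sites with FOXA1 in both lines and hold AP-2 matches and no forkhead match. Over all 34961 promoters of the table, 10.8% held a forkhead match and 23.2% an AP-2 match. Of 411 promoters over an SKBR3-specific peak, 7.54% held a forkhead match and 40.1% an AP-2 match. Of 146 promoters over an MDA-MB-453-specific site, 24.0% held a forkhead match and 21.9% an AP-2 match. The 287 promoters over a shared site had 21.6% and 31.4%. A RUNX match (TGTGGTT) stood in 3.41% of the SKBR3-specific and 6.85% of the MDA-MB-453-specific windows, against 4.28% of all, and an AP-1 match (TGANTCA) in 9.002% and 15.1%, against 7.68%. Neither motif occurs in the windows printed here. Base composition moved with these shares. The median GC content was 69% at SKBR3-specific, 48.3% at MDA-MB-453-specific and 57% at shared promoters, against 58.7% over all, and its part in the motif shares was not tested. Of the SKBR3-specific promoters, 77.4% also lay under a peak of SKBR3 TLE3 replicate 2, a list that touched 35.7% of all promoters. Promoters over a peak of replicate 2 had a forkhead match in 6.25%, an AP-2 match in 34.5% and a median GC content of 66.7%. Promoters over any MDA-MB-453 site, before overlaps with replicate 2 are removed, had 19.9%, 31.2% and 58.3%. Their counterpart, promoters over any peak of SKBR3 replicate 1, had 12.7%, 37.9% and 66.2%, a smaller forkhead difference than between the specific classes. A motif match describes letters in a window and not a bound factor.

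Fewer than 1 in 2 TLE3 sites of either line were shared. In SKBR3, 8335 peaks (39.4%, Wilson 95% interval 38.8% to 40.1%) were shared, 9237 (43.7%, 43.0% to 44.3%) were specific, and 3577 (16.9%) overlapped a peak of a single MDA-MB-453 replicate and entered neither class. In MDA-MB-453, 8167 sites (37.5%, 36.9% to 38.2%) were shared, 12422 (57.1%, 56.4% to 57.7%) were specific, and 1179 (5.42%) overlapped SKBR3 replicate 2 alone. Intervals cover counting error only, and the lists hold no read counts to show depth, so a site absent from a list may have been missed. The 2 MDA-MB-453 replicates held 42698 and 22706 peaks. Without MDA-MB-453 replicate 2, when every peak of replicate 1 is a site, 56.0% of SKBR3 peaks were shared and 27.4% of MDA-MB-453 sites. The overlap rule left few sites near its boundary. Of the shared SKBR3 peaks, 11 overlapped by less than 50 bp, and the median overlap was 362 bp. Of the SKBR3-specific peaks, 54 lay within 100 bp and 630 (6.82%) within 1 kb of an MDA-MB-453 TLE3 peak. Of the MDA-MB-453-specific sites, 75 lay within 100 bp and 932 (7.50%) within 1 kb of an SKBR3 TLE3 peak of either list.

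Whether a TLE3 site was shared went with whether FOXA1 was listed in both lines. FOXA1 sites, merged from overlapping peaks of FOXA1 replicates 1 and 2, numbered 90520 in SKBR3 and 135315 in MDA-MB-453. At shared SKBR3 peaks, 98.5% overlapped a FOXA1 site of SKBR3 and 99.4% a FOXA1 site of MDA-MB-453. At SKBR3-specific peaks, 88.5% (87.8% to 89.1%) overlapped FOXA1 of SKBR3, against 39.8% (38.8% to 40.8%) for FOXA1 of MDA-MB-453. MDA-MB-453-specific sites showed the reverse order, with 48.8% (47.9% to 49.7%) over FOXA1 of SKBR3 and 99.5% over FOXA1 of MDA-MB-453. With SKBR3 replicate 2 in the place of replicate 1 the order in SKBR3 turned, with 16.5% of its specific peaks over FOXA1 of SKBR3 and 24.1% over FOXA1 of MDA-MB-453. Put as combinations, SKBR3-specific peaks had FOXA1 in both lines in 3509 cases (38.0%), in SKBR3 only in 4663 (50.5%), in MDA-MB-453 only in 171 (1.85%) and in neither in 894 (9.68%). For MDA-MB-453-specific sites the numbers were 6060 in both lines (48.8%), 5 in SKBR3 only, 6300 in MDA-MB-453 only (50.7%) and 57 in neither (0.459%). In T47D, FOXA1 sites overlapped 42.6% of SKBR3-specific peaks, 65.6% of MDA-MB-453-specific sites and 90.4% of shared SKBR3 peaks, and TLE3 sites overlapped 22.3%, 37.2% and 78.2%.

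**Figure D1:**
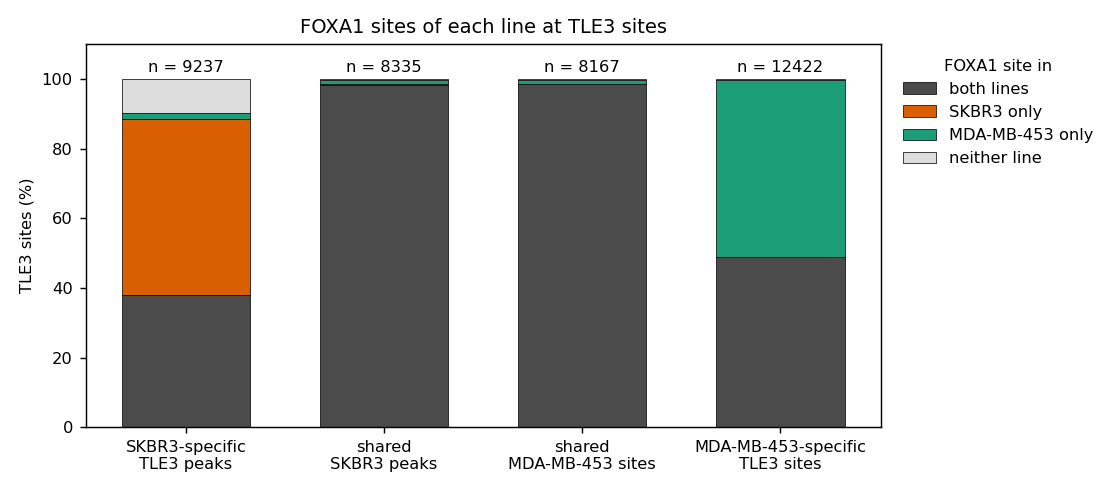
Stacked bars give the share (%) of TLE3 sites that overlapped a FOXA1 site in both lines, in SKBR3 only, in MDA-MB-453 only or in neither, for SKBR3-specific peaks, shared SKBR3 peaks, shared MDA-MB-453 sites and MDA-MB-453-specific sites, with the number of sites above each bar. FOXA1 of both lines covered over 98% of shared sites, 38.0% of SKBR3-specific peaks and 48.8% of MDA-MB-453-specific sites.

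FOXA1 sites themselves differed between the lines, and TLE3 sites that overlapped FOXA1 of their own line are given beside them, although the units, FOXA1 sites and TLE3 sites, are not the same. Of all SKBR3 FOXA1 sites, 62.6% overlapped a FOXA1 site of MDA-MB-453. Of the 8172 SKBR3-specific TLE3 peaks with FOXA1 of SKBR3, 42.9% overlapped FOXA1 of MDA-MB-453, and of the 8212 such shared peaks 99.8% did. Of all MDA-MB-453 FOXA1 sites, 41.8% overlapped one of SKBR3. Of the 12360 MDA-MB-453-specific TLE3 sites with FOXA1 of MDA-MB-453, 49.0% overlapped FOXA1 of SKBR3, and of the 8124 such shared sites 99.0% did. Seen from FOXA1, merged regions bound in both lines numbered 55750, and TLE3 was listed there in 26.0% for SKBR3 replicate 1, in 26.5% for MDA-MB-453 and in both lines in 14.3%. At 33846 regions with FOXA1 in SKBR3 only, TLE3 was listed in 13.0% for SKBR3 replicate 1 and in 0.0620% (21 regions) for MDA-MB-453. At 78736 regions with FOXA1 in MDA-MB-453 only, the values were 0.422% (332 regions) for SKBR3 replicate 1 and 8.33% for MDA-MB-453. SKBR3 TLE3 replicate 2 did not show this contrast, with peaks at 15.4% of the regions with FOXA1 in SKBR3 only and at 17.2% of those with FOXA1 in MDA-MB-453 only.

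Where FOXA1 was listed in both lines but TLE3 in one, the FOXA1 peak ranked higher in the line with TLE3. The authors deposited a score with each peak, which was used only as a percentile rank within its own list, 100 being the highest score. At the 3509 SKBR3-specific peaks with FOXA1 in both lines, the median FOXA1 percentile was 87.8 in SKBR3 and 61.1 in MDA-MB-453, and it was higher in SKBR3 at 87.8% of them. At the 6060 MDA-MB-453-specific sites with FOXA1 in both lines, it was 64.6 in SKBR3 and 93.1 in MDA-MB-453, and higher in SKBR3 at 4.50%. At shared SKBR3 peaks the medians were 92.7 and 94.3, and FOXA1 ranked higher in SKBR3 at 41.4%. The FOXA1 lists differ in length, and a percentile is a place in a list and not an amount of bound protein. The peak in WDR25 (chr14:100410990-100411610) is an example from SKBR3. It ranked 155 in SKBR3 TLE3 replicate 1, and its FOXA1 site stood at percentile 98.8 in SKBR3 and 51.1 in MDA-MB-453. Inside GLYATL1, next to the acyltransferase gene GLYATL2, a site (chr11:58926029-58926988) ranked 25 and 20 in the MDA-MB-453 TLE3 replicates, with FOXA1 at percentile 83.0 in SKBR3 and 99.996 in MDA-MB-453. A site 13058 bp from an end of GALR1 and inside this galanin receptor gene ranked 35 and 82 in MDA-MB-453, with FOXA1 at percentile 12.04 in SKBR3 and 99.99 in MDA-MB-453.

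Shared sites stood above specific sites in the TLE3 rank of both lines, and the gap between the lines depended on how the lists were treated. SKBR3-specific peaks had a median percentile of 35.6, against 68.6 for shared SKBR3 peaks, a difference of -33.0. MDA-MB-453-specific sites, ranked by the mean of both replicates, had 57.3, against 72.1 for shared sites, a difference of -14.7. The MDA-MB-453 sites are those of both replicates and had a median percentile of 62.0 over all, while the SKBR3 peaks are a whole list. With MDA-MB-453 replicate 1 as a single list the differences were -26.4 in SKBR3 and -24.4 in MDA-MB-453, and with both replicates needed in each line -13.8 and -11.9. With the SKBR3 list split into 5 equal parts from the highest score to the lowest, the specific share was 17.9%, 35.0%, 45.9%, 55.5% and 64.0%. In MDA-MB-453 it was 40.3%, 54.0%, 60.1%, 64.8% and 66.2%. Among the 100 highest sites, SKBR3 had 94 shared and 0 specific peaks, and MDA-MB-453 had 79 shared and 21 specific sites. Among the highest 1000, 71 SKBR3 peaks and 292 MDA-MB-453 sites were specific. Width moved with rank and class. The median width was 291 bp for SKBR3-specific and 377 bp for shared SKBR3 peaks, and 493 bp for MDA-MB-453-specific and 597 bp for shared MDA-MB-453 sites, which are merged from 2 lists.

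**Figure D2:**
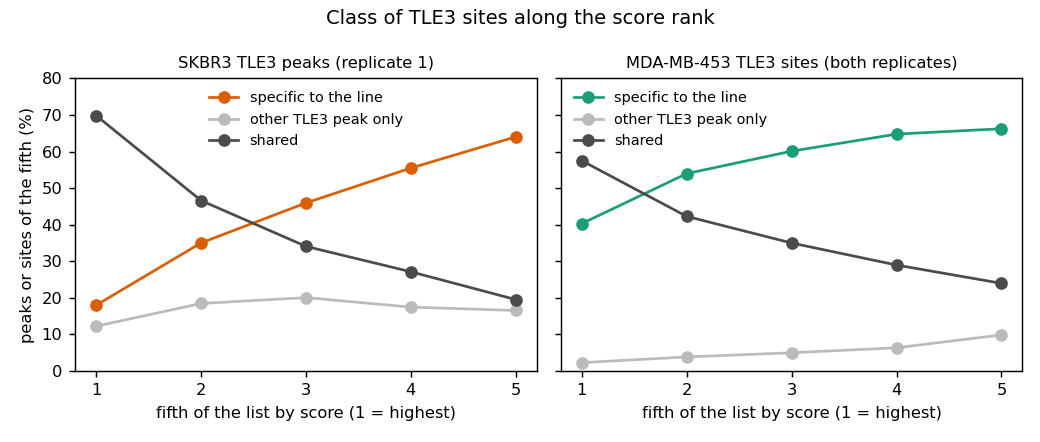
Lines give, for 5 equal parts of the list by peak score (x axis, 1 the highest), the share (%) of TLE3 sites that were specific to the line, shared, or over another TLE3 peak only, with SKBR3 replicate 1 on the left and MDA-MB-453 on the right. In the highest part 17.9% of SKBR3 peaks and 40.3% of MDA-MB-453 sites were specific, and in the lowest part 64.0% and 66.2%.

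None of the 10 highest ranked shared sites lay within 1 kb of a gene end, where 9.60% of all shared SKBR3 peaks lay. Rank 1 in SKBR3 went to a peak 285757 bp from the nearest protein-coding gene, TUT7, a terminal uridylyltransferase, and this site ranked 68 and 64 in MDA-MB-453 replicates 1 and 2. A site inside GMDS ranked 4 in SKBR3 and 15 and 16 in MDA-MB-453. One inside IGF2BP3, an RNA-binding protein gene, and nearest to MALSU1 ranked 6 in SKBR3 and 38 and 22 in MDA-MB-453. Among the 10 highest shared sites, the T cell adaptor gene SKAP1 held one inside it and HMCN1, MAX, NEBL, DOK5 and SNRPB2 were the nearest genes of others. Of these 10, each had a FOXA1 site in SKBR3, MDA-MB-453 and T47D. Among all shared SKBR3 peaks, 98.4% had FOXA1 in both SKBR3 and MDA-MB-453, and 90.4% had it in T47D.

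The 10 highest SKBR3-specific peaks ranked 152 to 322 of 21149, and the 10 highest MDA-MB-453-specific sites 17 to 57 of 21768. In SKBR3 the nearest genes were SECTM1, WDR25, SLC39A11, LOC124904276, HNF4G, ACOT1, CTTNBP2NL, SHB, FIGN and YEATS2. Of these peaks, 8 also overlapped a replicate 2 peak. The SECTM1 peak (chr17:82333616-82334401) lay 49 bp from the gene end, with FOXA1 at percentile 24.6 in SKBR3 and none in MDA-MB-453. The peak at the acyl-CoA thioesterase gene ACOT1 (chr14:73537503-73538102) ranked 273 with no FOXA1 site in either line. In MDA-MB-453 the nearest genes included UBE2E3, GLYATL2, GPC3, ARHGAP20, PLA2G4A, NOVA1, ZNF572, PRDM9 and GALR1. Near UBE2E3, a ubiquitin-conjugating enzyme gene, the site (chr2:180969873-180970829) ranked 24 and 19 in the 2 replicates, with no FOXA1 site in SKBR3 and FOXA1 at percentile 99.8 in MDA-MB-453. Near PLA2G4A and PRDM9, FOXA1 was likewise listed in MDA-MB-453 and not in SKBR3, and the other 7 of the 10 had FOXA1 in both lines.

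SKBR3-specific peaks lay nearer to gene ends than MDA-MB-453-specific sites. Within 1 kb of an end of an annotated gene lay 11.5% (10.8% to 12.1%) of SKBR3-specific peaks, against 5.28% (4.90% to 5.69%) of MDA-MB-453-specific sites, a difference of 6.19 percentage points. Shared sites had 9.60% in SKBR3 and 9.61% in MDA-MB-453. The median distance to an end of a protein-coding gene was 31819 bp for SKBR3-specific peaks and 71675 bp for MDA-MB-453-specific sites. Part of the difference came with SKBR3 replicate 2, which had 19.7% of its peaks at gene ends. The 1179 MDA-MB-453 sites that its peaks kept out of the specific class had 23.2%, and with that list left out the difference was 4.65 points. Of the SKBR3-specific peaks at gene ends, 56.6% overlapped replicate 2 and 68.3% FOXA1 of SKBR3. Away from gene ends, 30.9% overlapped replicate 2 and 91.1% FOXA1 of SKBR3. Without FOXA1 in either line, the highest SKBR3-specific peaks after ACOT1 lay 200 bp from an end of DTNB, 45434 bp from one of ASAP1, 169 bp from one of PRUNE2 and 2 bp from one of JAKMIP1.

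Around single genes, sites were counted where their centre lay within 50 kb of either gene end. Of 19974 protein-coding genes, 36.2% had an SKBR3-specific peak, 32.4% an MDA-MB-453-specific site and 30.9% a shared site so placed. SKBR3-specific without MDA-MB-453-specific sites stood near 24.5%, the reverse near 20.7%, both kinds near 11.7%, and none of the 3 kinds near 34.9%. More SKBR3-specific than MDA-MB-453-specific sites stood near 28.2% of genes and fewer near 23%. These shares move with the lists counted. With MDA-MB-453 replicate 1 alone, 36.4% of all genes were near an SKBR3-specific peak and 55.1% near an MDA-MB-453-specific site, and with its replicate 2 alone 44.2% and 34.2%. With equally long lists they were 43.1% and 28.7%, and without SKBR3 replicate 2 36.2% and 37.7%. The counts of gene lists given below for these settings are to be read against these shares. GTF2IRD1, a transcription factor gene of the TFII-I family, had the largest excess in SKBR3, with 13 SKBR3-specific peaks, 0 MDA-MB-453-specific sites and 2 shared peaks. The 13 peaks ranked 6431 to 21026 in SKBR3 replicate 1, so none was among its 4229 highest peaks. All but 1 of them overlapped a FOXA1 site of SKBR3, and 5 a FOXA1 site of MDA-MB-453. RAB20, a small GTPase gene, had 10 against 0, and TXNRD1, thioredoxin reductase 1, ABTB2 and BRI3 had 8 against 0 each. FBLN2, an extracellular matrix protein gene, PDGFB, a growth factor ligand gene, BAIAP2L1, NAXD and PLEKHG6 had 7 against 0 each. BRI3 with BAIAP2L1 and RAB20 with NAXD are neighbours that share 7 peaks each. FOXA1 was listed at more sites in SKBR3 near all 10 of these genes, from 11 against 4 near NAXD to 29 against 10 near BAIAP2L1.

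In the other direction, PTPRK, a receptor tyrosine phosphatase gene, had 1 SKBR3-specific peak and 8 MDA-MB-453-specific sites. SNX27, an endosomal sorting nexin gene, had 0 and 7 with 4 shared sites. CERK, ceramide kinase, KCNK1, a potassium channel gene, TOM1L1, MMP20, NDUFAF6, MAGEC3, FAM81B and FSIP1 had 0 and 6 each. Inside FSIP1, a site ranked 211 and 262 in the MDA-MB-453 replicates had no TLE3 peak in either SKBR3 list, although FOXA1 was listed there in both lines. FOXA1 was also listed at more sites in MDA-MB-453 near 8 of these 10 genes. MDA-MB-453 had more FOXA1 sites over the whole genome as well, 135315 against 90520 in SKBR3. The same count over all genes is not given here for either direction. TOM1L1 had 5 FOXA1 sites in SKBR3 and 17 in MDA-MB-453, CERK 5 and 14, and KCNK1 3 and 13. The exceptions were SNX27 with 28 and 23 and PTPRK with 26 and 18.

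**Figure D3:**
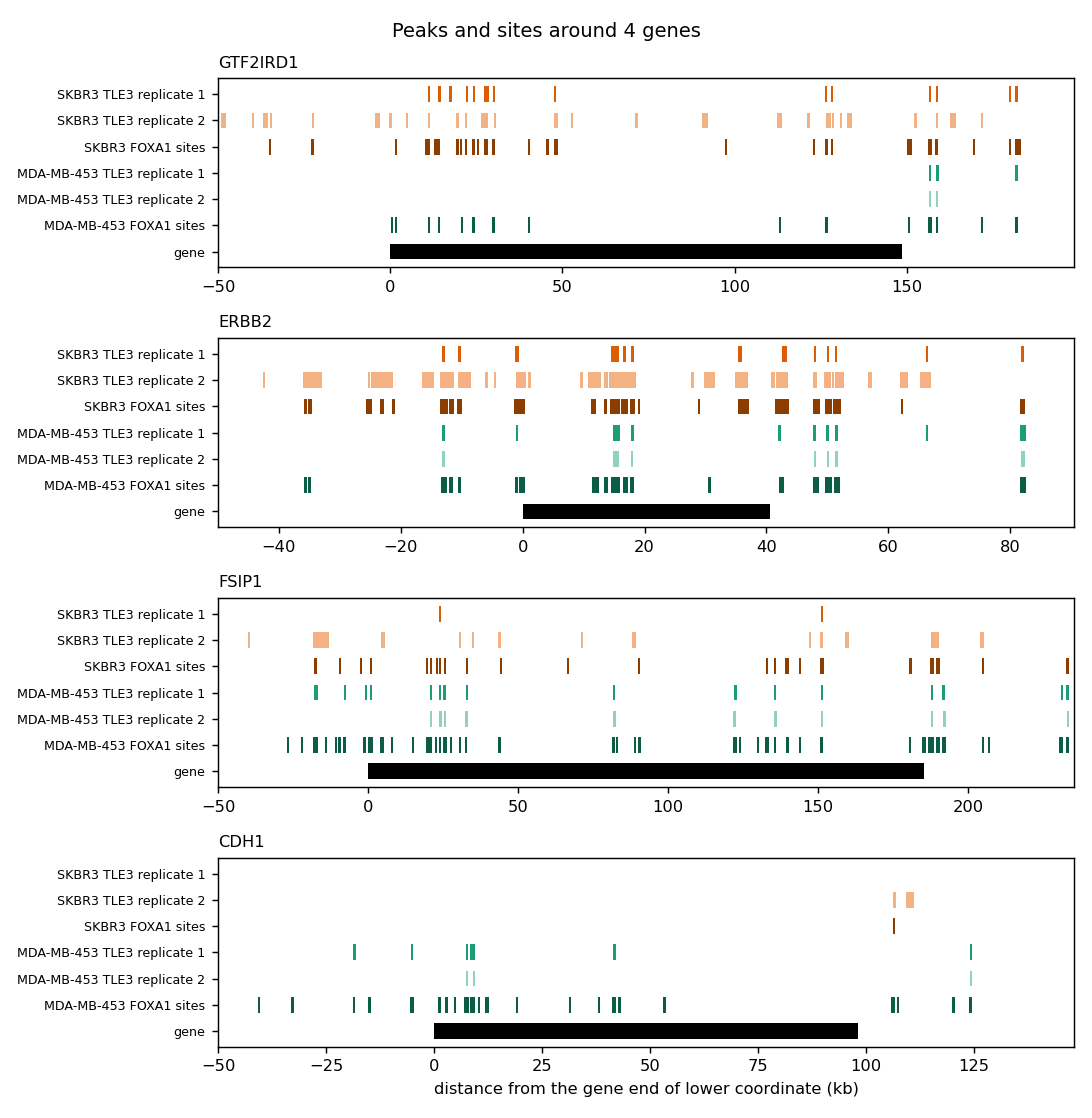
Bars mark TLE3 peaks of each replicate and FOXA1 sites of SKBR3, then of MDA-MB-453, by distance (kb) from the gene end of lower coordinate, with the gene as a black bar and 50 kb on each side, for GTF2IRD1, ERBB2, FSIP1 and CDH1 (very short intervals are widened to stay visible). TLE3 replicate 1 of SKBR3 had 16, 13, 2 and 0 peaks in these windows, and MDA-MB-453 replicate 1 had 3, 10, 17 and 7.

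The ERBB2 region held the largest difference among the 15 gene lists. Of 16 genes in and around the ERBB2 amplicon on chromosome 17, 14 had an SKBR3-specific peak nearby and 0 an MDA-MB-453-specific site, with 11 near a shared site. These genes are neighbours, and the counts rest on 8 distinct SKBR3-specific peaks and 8 distinct shared peaks. Of all protein-coding genes, 36.2% were near an SKBR3-specific peak, 32.4% near an MDA-MB-453-specific site and 30.9% near a shared site. Taking MDA-MB-453 replicate 1 alone, 5 of the 16 were near an MDA-MB-453-specific site, beside 55.1% of all genes. ERBB2, the receptor tyrosine kinase gene, had 4 SKBR3-specific and 7 shared peaks, GRB7, an adaptor of the receptor, 3 and 6, and PGAP3 4 and 4. A peak inside ERBB2 (chr17:39702636-39703876) ranked 827 in SKBR3 replicate 1 and 31120 in replicate 2, and 1068 and 513 in MDA-MB-453. The SKBR3-specific peaks near ERBB2 ranked 7030 to 10503 in SKBR3. FOXA1 was listed at all 4 in SKBR3 and at 3 of 4 in MDA-MB-453. The line is known for this amplification, copy number is not part of the lists, and its part in these counts was not tested.

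Of 18 ERBB receptors, ligands and adaptors, 9 were near an SKBR3-specific peak, 9 near an MDA-MB-453-specific site and 9 near a shared site. The same shares over all genes were 36.2%, 32.4% and 30.9%. EGFR, the epidermal growth factor receptor gene, had 4 SKBR3-specific peaks and 0 MDA-MB-453-specific sites, beside 21 FOXA1 sites in SKBR3 and 4 in MDA-MB-453. A shared site 30675 bp from an end of EGFR ranked 44 in SKBR3 replicate 1 and 3615 and 3150 in MDA-MB-453. ERBB4 had 0 and 3, with 9 FOXA1 sites in SKBR3 and 29 in MDA-MB-453, and NRG3, a ligand of ERBB4, had 0 and 3 with 0 and 21 FOXA1 sites. ERBB3 had 0 and 1.

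Luminal genes were near sites of both lines. Of 24 luminal identity genes, 17 were near an SKBR3-specific peak, 13 near an MDA-MB-453-specific site and 19 near a shared site. Among all genes 36.2%, 32.4% and 30.9% were so placed. Leaving out either SKBR3 replicate 2 or MDA-MB-453 replicate 2 gave 17 for each line. All genes then had 36.2% and 37.7% without SKBR3 replicate 2, and 36.4% and 55.1% without MDA-MB-453 replicate 2. TFAP2A, an AP-2 factor gene, had 4 SKBR3-specific peaks and 1 MDA-MB-453-specific site, and the luminal keratin gene KRT19 and the splicing regulator gene ESRP2 had 3 and 0 each. KRT8, a luminal keratin gene, had 1 and 0 with 3 shared peaks, and GATA3, a luminal transcription factor gene, had 0 and 0 with 3 shared. FOXA1 itself had 1 and 3, with 4 shared. Its shared site at chr14:37641139-37641481 ranked 4743 in SKBR3 replicate 1 and 130 and 74 in MDA-MB-453, and another at chr14:37546755-37547501 ranked 237 in SKBR3 and 3111 and 2743 in MDA-MB-453.

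At CDH1, the E-cadherin gene, 0 SKBR3-specific peaks and 3 MDA-MB-453-specific sites were found, and no peak of SKBR3 TLE3 replicate 1 lay within 50 kb of its ends. FOXA1 showed the same absence, with 1 site in SKBR3 and 22 in MDA-MB-453. The neighbouring basal gene CDH3, P-cadherin, had 0 and 3 TLE3 sites and 0 and 20 FOXA1 sites, and 2 of these 3 TLE3 sites are also counted for CDH1. SKBR3 is known to have lost E-cadherin through a deletion at CDH1, and the part of copy number in these counts was not tested.

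Some basal genes leaned to SKBR3, the basal keratin genes not among them. Of 19 basal identity genes, 9 were near an SKBR3-specific peak, 4 near an MDA-MB-453-specific site and 9 near a shared site. Over all genes these shares were 36.2%, 32.4% and 30.9%. With MDA-MB-453 replicate 1 alone the numbers were 9 and 8, where all genes had 36.4% and 55.1%, and with equally long lists 11 and 2, where all genes had 43.1% and 28.7%. Of the 19 genes, 7 had more SKBR3-specific peaks, 2 had more MDA-MB-453-specific sites and 10 had equal numbers. The basal keratin genes KRT5, KRT14, KRT17, KRT6A and KRT6B had 0 and 0 each. EGFR, also in the ERBB list, had 4 and 0. ITGB4, a hemidesmosome integrin gene, had 4 and 1, and CAV1, caveolin 1, had 2 and 0 beside 10 FOXA1 sites in SKBR3 and 3 in MDA-MB-453. TP63, a basal transcription factor gene, had 1 and 2 with 5 shared peaks.

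The corepressor genes, TLE3 and its relatives among them, leaned to MDA-MB-453. Of 18, 4 were near an SKBR3-specific peak, 13 near an MDA-MB-453-specific site and 11 near a shared site, and no gene of the list had SKBR3-specific peaks alone. Over all genes the shares near the 3 kinds of site were 36.2%, 32.4% and 30.9%. With MDA-MB-453 replicate 2 as its whole list the numbers were 7 and 13, where all genes had 44.2% and 34.2%. With equally long lists they were 7 and 10, where all genes had 43.1% and 28.7%. TLE1 leaned the other way, with 6 SKBR3-specific peaks, 1 MDA-MB-453-specific site and 6 shared peaks. TLE4 had 0 and 3, and FOXA1 there was listed at 0 sites in SKBR3 and 21 in MDA-MB-453. TLE3 had 2 SKBR3-specific peaks, 3 MDA-MB-453-specific sites and 2 shared peaks. The SKBR3-specific peak 1855 bp from an end of TLE3 (chr15:70099503-70100043) ranked 1043 in replicate 1 and 43497 in replicate 2, with FOXA1 in both lines. A shared site inside TLE3 (chr15:70093534-70093996) ranked 2089 in SKBR3 replicate 1, and 2657 and 3866 in MDA-MB-453.

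**Figure D4:**
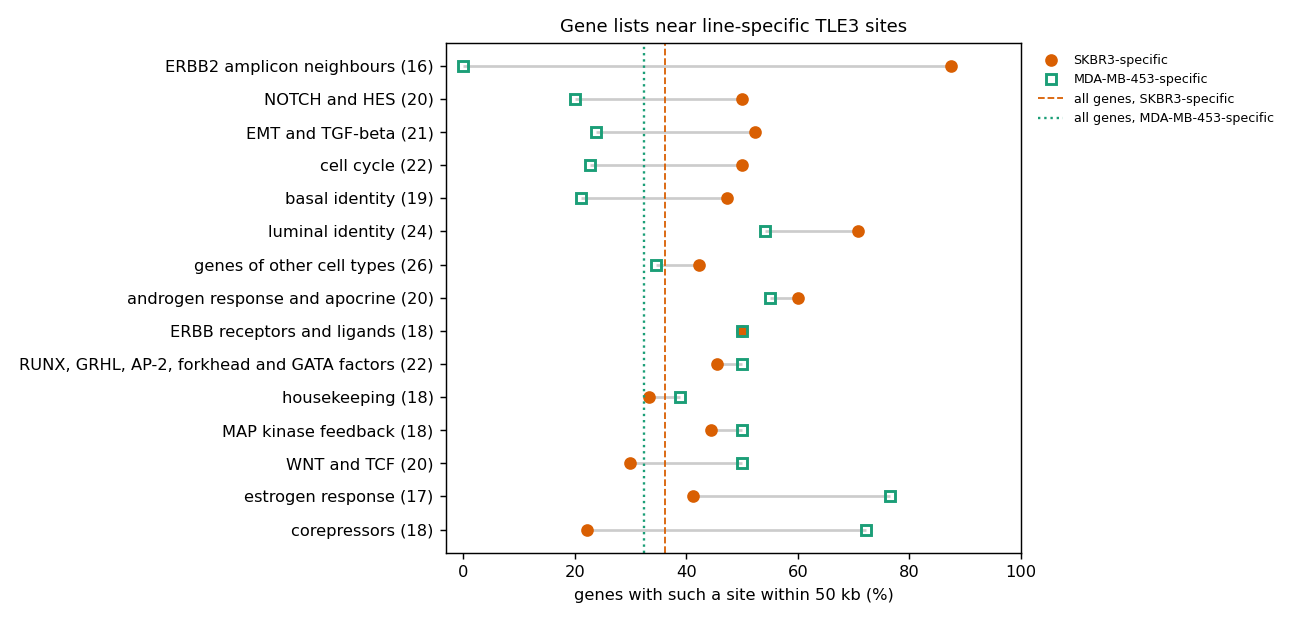
Each row is a gene list with its number of genes; filled circles give the share (%) of its genes within 50 kb of an SKBR3-specific peak and open squares of an MDA-MB-453-specific site, and the vertical lines give the same over all protein-coding genes (36.2% and 32.4%). The ERBB2 amplicon neighbours lie furthest to the SKBR3 side, with 14 of 16 and 0 of 16, and corepressors and estrogen response genes to the MDA-MB-453 side, with 4 and 13 of 18 and 7 and 13 of 17.

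Estrogen response genes leaned to MDA-MB-453 and androgen response genes to neither line. Of 17 estrogen response genes, 7 were near an SKBR3-specific peak, 13 near an MDA-MB-453-specific site and 10 near a shared site. With equally long lists the numbers were 10 and 12. For both lists of this paragraph, the shares over all genes were 36.2%, 32.4% and 30.9%, and 43.1% and 28.7% with equally long lists. PGR, the progesterone receptor gene, had 1 and 3, RERG, a RAS-related growth inhibitor gene, 0 and 2, and MYB, a transcription factor gene, 0 and 2 beside 10 and 25 FOXA1 sites. ESR1, the estrogen receptor gene, had 2 and 1, and IGFBP4, an insulin-like growth factor binding protein gene, 2 and 0. Of 20 androgen response and apocrine genes, 12 were near an SKBR3-specific peak, 11 near an MDA-MB-453-specific site and 11 near a shared site. TMPRSS2, an androgen-induced protease gene, had 5 and 1. Its SKBR3-specific peak at chr21:41478148-41478882 ranked 1402 in SKBR3 replicate 1, and its MDA-MB-453-specific site at chr21:41433394-41434040 ranked 1090 and 1435 in MDA-MB-453. UGT2B28, which encodes a steroid-conjugating enzyme, had 0 and 4, with one site 190 bp from a gene end at ranks 1084 and 1093. UGT2B11, its paralog, had 0 and 3, and short reads can map to several such copies.

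The pathway and transcription factor lists had no common direction. Their main counts stand beside 36.2% of all genes near an SKBR3-specific peak, 32.4% near an MDA-MB-453-specific site and 30.9% near a shared site. Without SKBR3 replicate 2, 37.7% of all genes were near an MDA-MB-453-specific site. Of 20 WNT and TCF genes, 6 were near an SKBR3-specific peak, 10 near an MDA-MB-453-specific site and 12 near a shared site, and with MDA-MB-453 replicate 1 alone the numbers were 6 and 17, beside 55.1% of all genes for MDA-MB-453-specific sites in that setting. TCF7L1 and NOTUM had 3 and 0 and TCF7L2 2 and 0, while LEF1, RNF43 and SFRP1 had 0 and 2 each. TCF7L1, TCF7L2 and LEF1 are the DNA-binding factors of the pathway, and RNF43, NOTUM and SFRP1 are inhibitors. Of 20 NOTCH and HES genes, 10 were near an SKBR3-specific peak, 4 near an MDA-MB-453-specific site and 8 near a shared site. The MDA-MB-453 number was 9 with SKBR3 replicate 2 left out of the rule and 7 with MDA-MB-453 replicate 1 alone. BHLHE40 had 4 and 0 and HES1, a repressor that binds Groucho proteins, 3 and 0, while HEY2 had 1 and 2. Of 21 EMT and TGF-beta genes, 11 were near an SKBR3-specific peak, 5 near an MDA-MB-453-specific site and 10 near a shared site. The MDA-MB-453 number was 9 without SKBR3 replicate 2 and 11 with MDA-MB-453 replicate 1 alone. TGFB2, a TGF-beta ligand gene, had 4 and 2, SNAI1, a repressor of E-cadherin, 3 and 0, and SMAD3, a signal transducer, 4 and 5. Of 22 RUNX, GRHL, AP-2, forkhead and GATA factor genes, 10 were near an SKBR3-specific peak, 11 near an MDA-MB-453-specific site and 7 near a shared site. GRHL1 had 5 and 0, GATA6 4 and 1, and GRHL2 0 and 2.

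The numbers for MDA-MB-453 replicate 1 alone in the next 3 lists stand beside the same 55.1% of all genes. Main counts in this paragraph stand beside the same 36.2%, 32.4% and 30.9%. Of 18 MAP kinase feedback genes, 8 were near an SKBR3-specific peak, 9 near an MDA-MB-453-specific site and 6 near a shared site, and the MDA-MB-453 number was 14 with its replicate 1 alone. DUSP6, a phosphatase that acts on ERK, had 0 and 4, with 11 FOXA1 sites in SKBR3 and 19 in MDA-MB-453, and DUSP4 had 2 and 0. Of 22 cell cycle genes, 11 were near an SKBR3-specific peak, 5 near an MDA-MB-453-specific site and 7 near a shared site, and the MDA-MB-453 number was 13 with its replicate 1 alone and 8 with its replicate 2 alone. CCNB1, the cyclin B1 gene, and E2F1, a transcription factor gene, had 2 and 0 each, and RB1, the retinoblastoma gene, had 0 and 1. Of 18 housekeeping genes, 6 and 7 were near a specific site of SKBR3 and of MDA-MB-453 and 3 near a shared site, and the MDA-MB-453 number was 13 with its replicate 1 alone. Of 26 genes of other cell types, such as those of blood, liver and muscle, 11 and 9 were near specific sites of SKBR3 and of MDA-MB-453 and 6 near a shared one. With equally long lists the numbers for genes of other cell types were 12 and 4, where all genes had 43.1% and 28.7%. The insulin gene INS had 5 and 0, the largest excess among genes of other cell types.

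The shares of line-specific sites on single chromosomes differed between the lines. As a share of all specific sites of the line, chromosome 19 held 2.62% in SKBR3 and 0.958% in MDA-MB-453, a ratio of 2.73, followed by chromosomes 17 (2.20) and 22 (2.15). Chromosome X held 1.98% in SKBR3 and 4.43% in MDA-MB-453, a ratio of 0.447, and chromosomes 4 and 18 had ratios of 0.575 and 0.590. The shares of FOXA1 sites moved the same way by less, with ratios of 1.20 for chromosome 19, 1.31 for chromosome 17 and 0.658 for chromosome X. Over all TLE3 sites of the line, chromosome 19 held 2.31% in SKBR3 and 1.41% in MDA-MB-453, and chromosome X 2.14% and 3.48%. SKBR3 replicate 2, whose peaks keep MDA-MB-453 sites out of the specific class, had 3.77% of its peaks on chromosome 19. The part of that list in these shares was not tested. In 1 Mb bins, the largest excess in SKBR3 was on chromosome 20, from 53 to 54 Mb, with 24 SKBR3-specific peaks, 1 MDA-MB-453-specific site, and 109 FOXA1 sites in SKBR3 against 45 in MDA-MB-453. This bin holds ZNF217 and BCAS1, genes known for amplification in breast cancer. The bin with TMPRSS2 and the interferon-induced gene MX1 on chromosome 21 also had 24 and 1, with 86 and 52 FOXA1 sites. The bin with TFAP2C on chromosome 20 had 18 and 1, with 71 and 29. On the MDA-MB-453 side, the bin with SIPA1L2 on chromosome 1 had 0 and 18, with 24 FOXA1 sites in SKBR3 and 120 in MDA-MB-453, and a bin of LRP1B on chromosome 2 had 0 and 14, with 16 and 109. Copy number can differ between the lines, and its part in these bins was not tested.

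**Figure D5:**
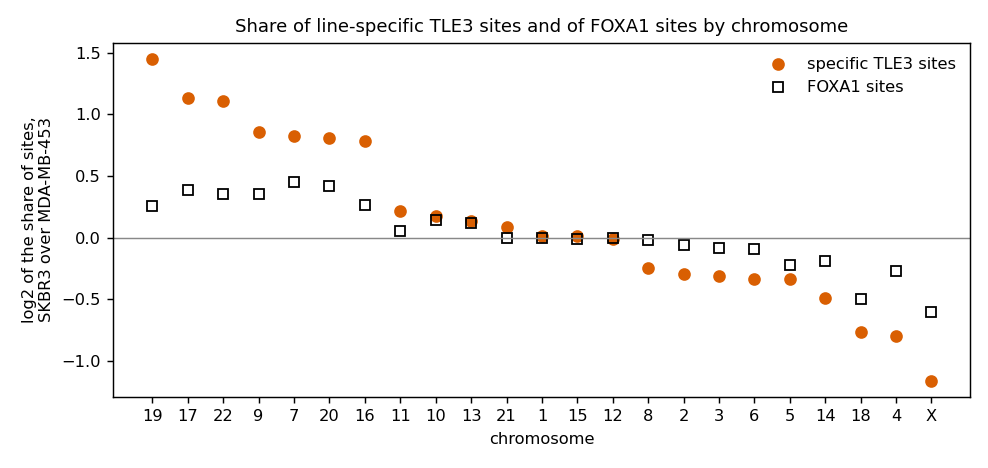
Points give, for each chromosome, the log2 of the share of sites in SKBR3 over that in MDA-MB-453, for specific TLE3 sites (filled circles) and for FOXA1 sites (open squares), ordered by the TLE3 value. Chromosomes 19, 17 and 22 lie highest and 18, 4 and X lowest, and FOXA1 sites follow the same direction with smaller differences at both ends.

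SKBR3 TLE3 replicate 2 differed from replicate 1 and from the other TLE3 lists. Of its peaks, 7.54% overlapped replicate 1, which in turn had 33.9% of its peaks overlapped, and 4.29% overlapped an MDA-MB-453 TLE3 site. FOXA1 sites of SKBR3 covered 21.7% of its peaks and those of MDA-MB-453 29.9%, against 93.5% and 72.6% for replicate 1. Its 7115 peaks over replicate 1 had FOXA1 of SKBR3 at 91.0% and had a median percentile of 28.4 in its list, so they stood in the lower ranks. Of its 1000 highest peaks, 20 overlapped an MDA-MB-453 site and 24.1% lay at a gene end. The highest ones lay in MMRN2 and CCL1, with no FOXA1 site of SKBR3 at either. Among SKBR3-specific peaks, the 3128 over replicate 2 had FOXA1 of SKBR3 at 83.8% and FOXA1 of MDA-MB-453 at 39.9%. The 6109 that were not had 90.9% and 39.8%.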

How the data were processed

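ChIP-seq peak lists of TLE3 and FOXA1 in SKBR3, MDA-MB-453 and T47D were used, 1 list per library and 12 in all. The 6 input samples were not analysed here. The build was hg38, and the tools were MACS2, SAMtools, BWA 0.7.5a and Trim Galore, per the submitters' processing notes. How the caller was set, and against which control, is not stated in the labels. The authors deposited a peak score per interval. The quantity is not named, its lowest value was near 2 in each list, and it served only as a rank within a list. No read counts are in the lists. The 15 peaks outside chromosomes 1 to 22 and X were left out.

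Overlap means at least 1 bp. Genes came from the RefSeq table of GRCh38.p14, which gives no strand, so distances run to either gene end. All 299 entries of 15 gene lists matched a symbol. Members and lists were chosen with earlier results of these data known. Genes named were those nearest the 10 highest ranked sites of each class, the 10 with the largest excess of specific sites each way, up to 3 list members each way, 9 further genes of luminal and ERBB biology, and the highest ranked promoters. Some of the genes this rule gives are not reported here. The genes of the 5 highest peaks of SKBR3 TLE3 replicate 2, of peaks without FOXA1 and of the 1 Mb bins were added after their values were seen. So were the basal keratin genes. Samples were grouped by title. Computation used Python 3.11.15, numpy 2.4.6, pandas 2.3.3 and scipy 1.17.1, with Wilson intervals at 95%, and overlap counting was tested on simulated data. Alternatives were each replicate left out, a stricter overlap, the upper 50% of each list, lists of 21149 peaks, other gene windows and either-replicate FOXA1. The gene list counts under replicates left out and equally long lists were added after the data were seen.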

Additional observations from a re-analysis of the deposited data

How the results depend on the processing

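Over 122 alternative values of the 11 comparisons, 43 moved by less than the interval of the main value, 78 by more, and 1 changed sign, and the cause was not tested. Some of the 43 could not move under the rule. Leaving out SKBR3 replicate 2 cannot change the shared shares, nor the FOXA1, rank and gene values of SKBR3-specific peaks. Requiring both SKBR3 replicates cannot change the FOXA1 and gene shares of MDA-MB-453-specific sites. The 1 kb rule cannot change the shared shares. No paired analysis was possible because the results come from no test. Leaving out each replicate in turn, the shared share ran from 4.29% to 56.0% in SKBR3 and from 18.0% to 37.5% in MDA-MB-453. SKBR3-specific peaks had FOXA1 of SKBR3 at 16.5% to 90.2% and FOXA1 of MDA-MB-453 at 24.1% to 55.4%. MDA-MB-453-specific sites had them at 43.4% to 64.1% and 97.3% to 99.6%. The gene-end difference ran from 4.65 to 13.6 points. The rank difference ran from -33.0 to 17.8 in SKBR3 and from -24.4 to -0.986 in MDA-MB-453. Genes near specific sites ran from 36.2% to 96.2% and from 34.2% to 55.1%. The extremes of 4.29%, 18.0%, 16.5%, 24.1%, 64.1%, 99.6%, 13.6, 17.8, -0.986 and 96.2% come from putting SKBR3 replicate 2 in the place of replicate 1. In that setting the rank difference in SKBR3 changed sign, and FOXA1 of MDA-MB-453 covered more SKBR3-specific peaks than FOXA1 of SKBR3.

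Requiring both SKBR3 replicates gave shared shares of 38.6% and 12.4%, FOXA1 at SKBR3-specific peaks of 85.4% and 42.6%, a gene-end difference of 13.4, rank differences of -13.8 and -11.9, and 19.5% of genes near SKBR3-specific peaks. The upper 50% of each list gave shared shares of 37.5% and 35.1%, FOXA1 shares of 95.4% and 62.1% at SKBR3-specific and of 61.2% and 99.96% at MDA-MB-453-specific sites, a gene-end difference of 5.18, rank differences of -30.2 and -15.6, and genes at 22.3% and 21.2%. Equally long lists gave 34.8% and 40.8%, then 89.7%, 53.1%, 52.1% and 99.8%, rank differences of -31.8 and -16.5, and genes at 43.1% and 28.7%. FOXA1 of either replicate gave 92.2%, 50.3%, 59.6% and 99.8%. With no TLE3 peak of the other line within 1 kb, FOXA1 of the other line was at 38.4% and 47.7%, and genes at 34.5% and 29.0%. Without the densest 1% of bins, 36.8% of MDA-MB-453 sites were shared and genes were at 34.9% and 31.5%. An overlap of 50% put 33.5% of genes near MDA-MB-453-specific sites. The gene-end difference was 9.36 within 3 kb and 3.98 for protein-coding ends alone. Genes within 10 kb were 13.5% and 10.2%, within 100 kb 51.8% and 48.9%, and with the gene body 37.9% and 34.7%.

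Of 120 alternative gene list counts, 105 stayed within 1.5 times the main count. Among these 105 are the SKBR3-specific counts of the 15 gene lists without SKBR3 replicate 2. They could not move, as replicate 2 gives no SKBR3 members. The lists give no depth, so a site absent from a list is not shown to be unbound.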
